A study of Mus musculus with 8 samples.

Results

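The expression of 10 genes for matricellular and provisional matrix proteins was examined in mouse embryonic fibroblasts (MEFs) and after their treatment with one of 3 small molecules: carbidopa, CHIR-99021 or LY-364947. The genes were taken by symbol from the 50578 genes of the deposited count table: Fn1, Vcan, Postn, Tnc, Tnxb, Thbs2, Thbs4, Sparc, Cthrc1 and Spon1. All 10 were listed once in the table. MEFs are cultured connective tissue cells of the embryo, here wild-type (WT) C57BL/6J cells at passage 3 to 5 from embryos without head, tail, limbs and internal organs. The untreated controls and the 3 treated groups had 2 libraries each. The compounds were given at 10 µM, starting 2 hours after plating, in medium with serum that was renewed every 3 days. LY-364947, which the sample labels spell LY-364747, blocks the receptor of TGF-beta. CHIR-99021 blocks the kinase GSK3 and thereby turns on Wnt signaling. Carbidopa is an inhibitor of the decarboxylase of aromatic L-amino acids. How long the cells of these libraries were treated and whether the controls received solvent are not given in the sources used here, so differences in culture and effects of a compound cannot be told apart.

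Connective tissue cells surround themselves with a fibrillar matrix. When a tissue forms or a wound closes, they first lay down a provisional matrix rich in fibronectin and in versican bound to hyaluronan, which is later replaced by collagen. Matricellular proteins are secreted into this matrix but do not serve as its main structural elements. They adjust how cells hold on to it and how collagen is assembled. Many of these genes are known to respond to TGF-beta, and cultured fibroblasts on plastic and in serum express them at high levels.

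The libraries held 15039566 to 20504338 counts, and 15154 genes (30.0% of those listed) had enough counts for a test. Of all reads, 3.15% and 3.25% came from the 10 genes in untreated cells, against 0.975% to 1.53% in treated ones. The carbidopa libraries differed from each other more than any other pair did, by 36.4 times the chi-square value of sampling noise against 4.35 (MEF), 7.60 (LY-364947) and 9.38 (CHIR-99021), so values that rest on a single carbidopa library are given with and without it. Fibroblast markers were present, none of 10 being at 0 in any library, with summed levels of 16157 to 16387 normalized CPM (counts scaled to a common library size) in MEFs and 5947 to 8203 in treated cells, and 8 of the 10 were lower and 1 higher in each treatment. The labels call the treated cells hepatic-like. For these compounds the paper reports epithelial-like shape, higher hepatocyte genes by PCR, glycogen and fat staining, and clustering with hepatic progenitor-like cells. In these libraries none of 10 hepatocyte markers had enough counts for a test, and Serpina1a and Tat were at 0 in every library. The hepatocyte markers summed to 0.223 and 0.516 CPM in the MEF libraries and to 1.22 to 1.57 in the 6 treated libraries, all of which were above both MEF libraries. In each library 5 to 8 of the 10 were at 0, so these sums rest on few reads. Epithelial markers (6 genes, 3 tested) summed to 3.10 to 4.16 CPM in MEFs and 9.82 to 21.4 in treated cells, with 1, 1 and 3 higher under carbidopa, LY-364947 and CHIR-99021. Endothelial markers (6 genes, 3 tested) summed to 16.8 to 19.6 and 11.3 to 15.6 CPM, with 1, 1 and 2 lower. Macrophage markers (10 genes) summed to 1049 and 1087 CPM in untreated cells, 325 to 350 under carbidopa, 242 to 247 under LY-364947 and 78.9 to 87.9 under CHIR-99021. Of these, 9 could be tested, and 8, 8 and 9 were lower than in MEFs. All these marker counts stand beside 19.7%, 17.2% and 20.1% of all tested genes lower with carbidopa, LY-364947 and CHIR-99021. Higher were 18.0%, 13.7% and 18.7%. For the epithelial and endothelial markers, 3 tested genes are too few to set against these shares. Macrophages can also make fibronectin, and their part in the results below was not tested. In such bulk libraries, fewer cells of a type and less RNA per cell cannot be told apart. The labels do not say whether replicates came from separate cultures, so p-values measure only the spread between these libraries.

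Levels are given as CPM after TMM scaling, which adjusts for differences in library composition. Differences are log2 fold changes from edgeR's quasi-likelihood test. Their standard error (SE) was derived as the size of the change divided by the square root of the test's F value. A gene is reported as higher or lower at a Benjamini-Hochberg adjusted p under 0.05 over all 15154 genes. The fit took all 8 libraries and assumed that a gene varies alike in all groups. The spread between the carbidopa libraries therefore also entered the SE and p-values of comparisons without carbidopa.

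The promoters of 7 of the 10 genes were found in RefSeq's table for GRCm38.p6, and those of Fn1, Cthrc1 and Spon1 were not used here. The 250 bases before a transcription start are shown for 4 genes that represent the responses described below: Postn and Vcan, which were lower in all treatments and least so with CHIR-99021, Thbs2, which was lowest with CHIR-99021, and Tnc, which was not lower with CHIR-99021. Capitals mark matches to the core promoter box, whose letters are TATAAA, on either strand. They also mark matches to the short motif bound by SMAD proteins, the transcription factors of the TGF-beta pathway, which was searched as CAGAC.
Postn, chr3:54360857-54361106, plus strand: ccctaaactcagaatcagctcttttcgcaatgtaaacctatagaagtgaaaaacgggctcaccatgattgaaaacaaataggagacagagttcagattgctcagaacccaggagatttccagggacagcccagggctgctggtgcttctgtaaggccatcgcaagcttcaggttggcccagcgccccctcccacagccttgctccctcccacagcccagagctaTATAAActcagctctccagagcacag
Vcan, chr13:89742513-89742762, minus strand: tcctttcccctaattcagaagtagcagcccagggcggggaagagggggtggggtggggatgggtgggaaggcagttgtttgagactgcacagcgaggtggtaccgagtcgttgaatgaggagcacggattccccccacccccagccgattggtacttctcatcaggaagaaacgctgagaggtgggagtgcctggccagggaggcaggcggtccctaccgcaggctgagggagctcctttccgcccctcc
Thbs2, chr17:14694263-14694512, minus strand: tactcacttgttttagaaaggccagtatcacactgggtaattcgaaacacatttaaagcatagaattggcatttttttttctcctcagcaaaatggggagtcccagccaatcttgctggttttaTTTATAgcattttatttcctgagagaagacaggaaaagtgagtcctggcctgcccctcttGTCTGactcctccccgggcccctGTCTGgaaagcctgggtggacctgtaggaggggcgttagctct
Tnc, chr4:64047016-64047265, minus strand: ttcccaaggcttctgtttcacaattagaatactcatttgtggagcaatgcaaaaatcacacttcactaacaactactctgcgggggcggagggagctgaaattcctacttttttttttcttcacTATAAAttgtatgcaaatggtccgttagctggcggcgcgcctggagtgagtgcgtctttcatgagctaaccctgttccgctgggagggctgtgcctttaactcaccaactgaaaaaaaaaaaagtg
In Postn, the letters of the core promoter box stood at positions -26 to -21 from the start. In Tnc the same letters stood at -126 to -121, and in Thbs2 they stood at the same positions on the opposite strand. These letters occur in 12.4% of the 32851 promoter windows of the table, and in 3 of the 7 members. A member was counted if any of its windows held the motif, and Postn and Tnc had a further window. Counts of members and shares of windows are therefore not on the same scale, here and below. The window of Vcan held neither motif, whereas that of Thbs2 held the SMAD motif at 2 places, both on the opposite strand. That motif occurs in 42.2% of all windows. It was present in 6 of the 7 members, in Postn and Tnc only at a further start site whose window is not shown. Of the other motifs searched, that of the TEAD factors, with the letters GGAATG, occurs in 12.6% of all windows and was found in Thbs4 alone. The AP-1 motif, which was written as TGANTCA for this search, occurs in 6.75% and was found in Tnxb alone. The motif of the TCF/LEF factors of the Wnt pathway, searched as CTTTGA on both strands, occurs in 13.8%, and the CArG box occurs in 1.47%. Neither was found in any of the 7. A match is a run of letters and not a measured binding site.

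The first question was how each treatment changed these genes relative to untreated MEFs. With carbidopa, 9 of the 10 genes were lower and none was higher, against 19.7% of all tested genes lower and 18.0% higher. With LY-364947, the same 9 genes were lower and none was higher (17.2% lower and 13.7% higher among all tested genes). With CHIR-99021, 8 were lower and none was higher (20.1% and 18.7%). Each count includes Thbs4, which had so few reads that it passed the filter on low counts only through MEFs and could only be called lower. Without it the counts were 8, 8 and 7 of the other 9 genes. For the 9 genes without Thbs4, the log2 fold changes had a median of -1.005, -0.88 and -1.18 (carbidopa, LY-364947, CHIR-99021), against 0.037, 0.028 and 0.043 for all tested genes. With Thbs4 the medians were -1.31, -1.35 and -1.25. The 3 comparisons share the MEF libraries, so their results are not independent of each other. Fn1, Vcan, Postn, Thbs2, Sparc, Cthrc1 and Tnxb were lower in every treatment, as was Thbs4 with the limit just given, Tnc was lower in the carbidopa and LY-364947 groups, and Spon1 passed the test in none. With 2 libraries a group, libraries that do not overlap with MEF are common: 68.9%, 72.7% and 76.2% of all tested genes showed this in the same order of treatments, against 9, 10 and 10 of the 10 genes. These counts include Thbs4 and take in both directions. The libraries of Spon1 were above MEF with LY-364947, and those of Tnc and Spon1 were above MEF with CHIR-99021.

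**Figure D1:**
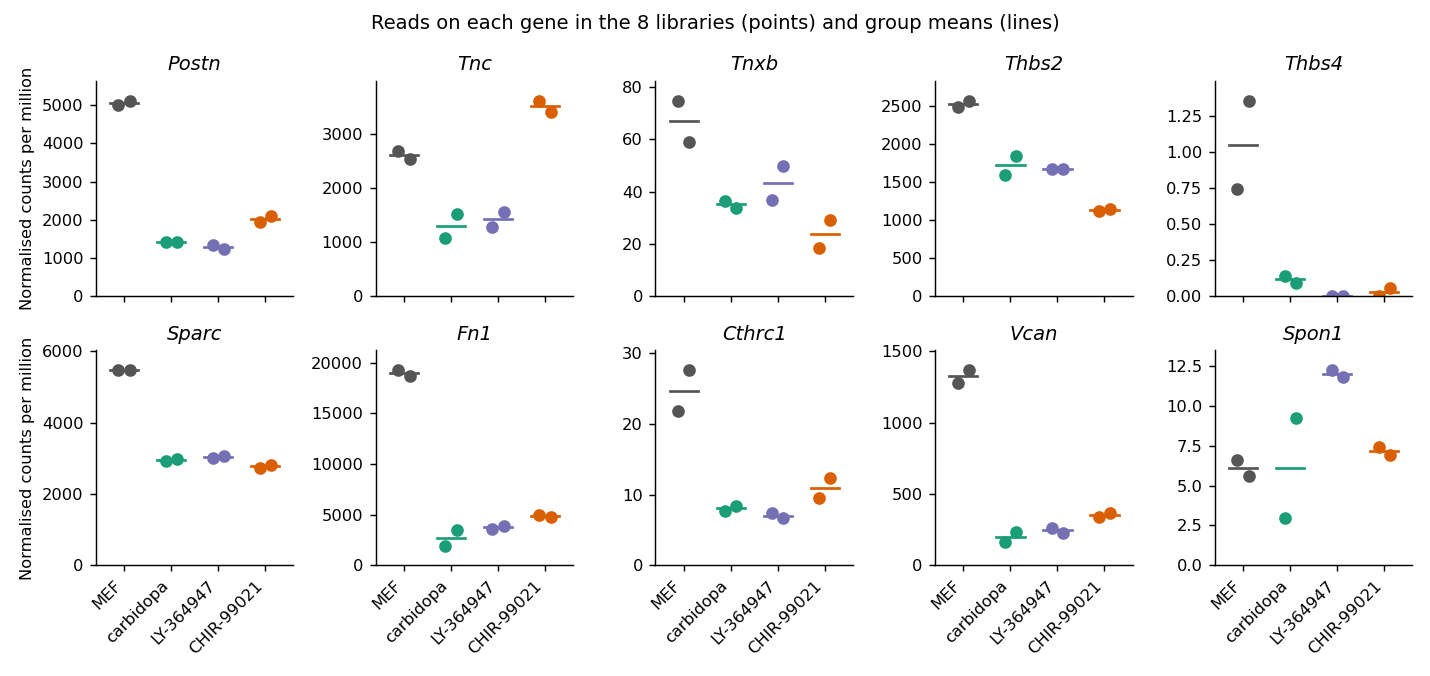
Normalized CPM (vertical axis, from 0) of each of the 10 genes in the 2 libraries of each group (points), with the group mean as a line. The MEF points stand above the treated points in the panel of Fn1, for example (19267 and 18682 against at most 4990). In the Tnc panel the CHIR-99021 points (3409 and 3625) are the highest, and in the Spon1 panel the LY-364947 points (11.8 and 12.2) are.

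Among the components of the provisional matrix, fibronectin (Fn1, ENSMUSG00000026193, chromosome 1 of GRCm38, 71585520 to 71653200, minus strand) was the member with the most reads. Fibronectin binds integrins on the cell surface and forms the fibrils on which collagen is laid down. Fn1 was at 19267 and 18682 CPM in untreated cells, 1956 and 3532 after carbidopa, 3594 and 3923 after LY-364947, and 4990 and 4750 after CHIR-99021. Every treated library was far below both MEF libraries, and the carbidopa libraries lay apart from each other. In reads, Fn1 ranked 2nd of all genes in both MEF libraries, 28th and 8th with carbidopa, 7th in both LY-364947 libraries and 5th in both CHIR-99021 libraries. The log2 fold change was -2.79 under carbidopa (SE 0.23, adjusted p = 6.31e-06), -2.34 under LY-364947 (SE 0.22, adjusted p = 2.08e-05) and -1.96 under CHIR-99021 (SE 0.22, adjusted p = 6.24e-05), or 6.92-fold, 5.05-fold and 3.90-fold lower. Without carbidopa replicate 1 the carbidopa value was -2.43, and without carbidopa replicate 2 it was -3.28. The exons of Fn1 overlap those of Apol7d on the other strand over 292 bases, but that gene had at most 12 reads in any library. Gene counts do not separate the splice forms of fibronectin.

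Versican (Vcan, ENSMUSG00000021614, chromosome 13, 89655312 to 89742509, minus strand), a large chondroitin sulfate proteoglycan that binds hyaluronan, followed the same order. Vcan was at 1279 and 1370 CPM in untreated cells, 162 and 233 after carbidopa, 265 and 230 after LY-364947, and 338 and 366 after CHIR-99021. All treated libraries were below both MEF libraries, and the carbidopa and LY-364947 libraries overlapped. The log2 fold changes were -2.75 (SE 0.17, adjusted p = 7.62e-07), -2.42 (SE 0.16, adjusted p = 1.72e-06) and -1.91 (SE 0.16, adjusted p = 8.10e-06). The first of these was -2.51 without carbidopa replicate 1 and -3.03 without carbidopa replicate 2. Among the 15154 genes ordered from the largest fall with carbidopa, Fn1 was at place 319 and Vcan at place 328.

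Periostin (Postn, ENSMUSG00000027750, chromosome 3, 54361109 to 54391037, plus strand) is a matricellular protein that binds integrins and promotes the crosslinking of collagen. Postn stood at 5003 and 5121 CPM in untreated cells, 1405 and 1413 after carbidopa, 1336 and 1238 after LY-364947, and 1948 and 2091 after CHIR-99021. The replicates lay close together, and the CHIR-99021 libraries stood between the MEF libraries and the other treated libraries. The log2 fold change of Postn was -1.84 under carbidopa (SE 0.099, adjusted p = 3.20e-07), -1.98 under LY-364947 (SE 0.0996, adjusted p = 2.12e-07) and -1.33 under CHIR-99021 (SE 0.098, adjusted p = 3.15e-06). Collagen triple helix repeat containing 1 (Cthrc1, ENSMUSG00000054196, chromosome 15, 39076932 to 39087121, plus strand), a secreted protein made by activated fibroblasts, had the same order at a far lower level. For Cthrc1, values of 21.8 and 27.6 CPM were found in untreated cells, 7.72 and 8.44 after carbidopa, 7.41 and 6.66 after LY-364947, and 9.50 and 12.4 after CHIR-99021. The MEF libraries were the highest and did not overlap with any treated library. Its log2 fold changes were -1.61 (SE 0.18, adjusted p = 6.03e-05), -1.81 (SE 0.18, adjusted p = 3.13e-05) and -1.18 (SE 0.18, adjusted p = 4.77e-04).

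Osteonectin (Sparc, ENSMUSG00000018593, chromosome 11, 55394500 to 55423183, minus strand) is a calcium- and collagen-binding protein that loosens cell adhesion. Sparc reached 5474 and 5462 CPM in untreated cells, 2923 and 2976 after carbidopa, 3016 and 3075 after LY-364947, and 2740 and 2808 after CHIR-99021. The 6 treated libraries fell within a narrow range below the MEF libraries. The log2 fold changes of Sparc were -0.89 (SE 0.092, adjusted p = 3.64e-05), -0.84 (SE 0.092, adjusted p = 5.55e-05) and -0.98 (SE 0.092, adjusted p = 1.79e-05), which leaves 53.9%, 55.7% and 50.7% of the MEF level. After Fn1, it was the member with the most reads in MEFs.

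Of the thrombospondins, Thbs2 (ENSMUSG00000023885, chromosome 17, 14665500 to 14694235, minus strand) encodes a trimeric protein that restrains blood vessel growth and takes part in collagen fibril assembly. Thbs2 reached 2489 and 2577 CPM in untreated cells, 1602 and 1840 after carbidopa, 1669 and 1678 after LY-364947, and 1127 and 1152 after CHIR-99021. The CHIR-99021 libraries were the lowest of all, and the carbidopa and LY-364947 libraries overlapped. The log2 fold changes were -0.56 (SE 0.10, adjusted p = 0.00173), -0.60 (SE 0.10, adjusted p = 0.00119) and -1.15 (SE 0.10, adjusted p = 1.19e-05). Thbs4 (ENSMUSG00000021702, chromosome 13, 92751590 to 92794818, minus strand), a pentameric thrombospondin of tendon and muscle, was barely detected. Untreated cells gave 10 and 21 reads, carbidopa-treated cells 3 and 2, LY-364947-treated cells none in either library, and CHIR-99021-treated cells 0 and 1. The ratio of pooled reads was 9.14-fold lower with carbidopa (exact 95% confidence interval 3.52 to 30.1) and 37.1-fold lower with CHIR-99021 (6.18 to 1510). With LY-364947 it was at least 13.1-fold lower if a count of 0 allows up to 3 reads over the group, and the exact interval, which also covers the counting error of the MEF reads, had a lower limit of 10.0045. These intervals cover counting error only. Since Thbs4 entered the test only through the group in which it was high, its calls are not taken as support. The call for carbidopa was lost without MEF replicate 2 (adjusted p = 0.106).

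The tenascins differed from each other in their response to CHIR-99021. Tenascin-C (Tnc, ENSMUSG00000028364, chromosome 4, 63959785 to 64047015, minus strand) is a large glycoprotein of embryonic and wounded tissue that weakens adhesion to fibronectin. Tnc was at 2681 and 2549 CPM in untreated cells, 1079 and 1527 after carbidopa, 1283 and 1563 after LY-364947, and 3625 and 3409 after CHIR-99021. Both CHIR-99021 libraries were above the MEF libraries, and the other 4 treated libraries were below them. Tnc was 2.01-fold lower with carbidopa (SE 0.16 on the log2 scale, adjusted p = 7.51e-04) and changed by a log2 value of -0.88 with LY-364947 (SE 0.16, adjusted p = 0.00184). With CHIR-99021 the log2 fold change was 0.43 (SE 0.16, adjusted p = 0.0549), which did not pass the threshold here. It passed with DESeq2 (adjusted p = 0.0421), without a filter on low counts (1.66e-04) and when only the CHIR-99021 and MEF libraries were fitted (7.20e-04). It also passed with the replicate number as a block in the fit, although these numbers may not pair the samples. Over all settings tried the adjusted p ran from 1.66e-04 to 0.248, with log2 fold changes of 0.38 to 0.48. An RNA on the other strand, 8030451A03Rik, overlaps 176 bases of Tnc exons and had 14 to 42 reads.

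Tenascin-X (Tnxb, ENSMUSG00000033327, chromosome 17, 34670535 to 34719815, plus strand) associates with collagen fibrils in skin and tendon, and its loss in humans leads to a form of Ehlers-Danlos syndrome. Tnxb was at 74.9 and 59.0 CPM in untreated cells, 36.4 and 33.8 after carbidopa, 36.8 and 50.005 after LY-364947, and 18.3 and 29.2 after CHIR-99021. All treated libraries were below the MEF libraries, and those with CHIR-99021 were the lowest. The log2 fold changes of Tnxb were -0.93 (SE 0.21, adjusted p = 0.00682), -0.62 (SE 0.21, adjusted p = 0.0473) and -1.49 (SE 0.22, adjusted p = 4.16e-04). The second was lost without MEF replicate 1 (-0.44, adjusted p = 0.290), MEF replicate 2 (-0.79, 0.0658) or LY-364947 replicate 1 (-0.42, 0.290), and the first without MEF replicate 1 (-0.75, 0.0698). Tnxb shares 4.12% of its 75-base words with the neighboring copy Tnxa, for which no reads were counted in any library. No other member shared such a word with another gene.

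F-spondin (Spon1, ENSMUSG00000038156, chromosome 7, 113765998 to 114043370, plus strand), a secreted protein with thrombospondin type I repeats that is best known from the floor plate of the neural tube, did not fall in step with the others. Spon1 was at 6.62 and 5.61 CPM in untreated cells, 2.97 and 9.24 after carbidopa, 12.2 and 11.8 after LY-364947, and 7.43 and 6.91 after CHIR-99021. The LY-364947 libraries were the highest, while the carbidopa libraries lay on either side of MEFs. With carbidopa the log2 fold change was 0.00083 (95% confidence interval -0.88 to 0.88), which became 0.60 without carbidopa replicate 1 (adjusted p = 0.0233) and -1.04 without carbidopa replicate 2 (adjusted p = 0.00224). With LY-364947 it was 0.98 (SE 0.38, adjusted p = 0.0817). That value passed with DESeq2 (adjusted p = 0.0378), without a filter (2.98e-05) and with the LY-364947 and MEF libraries alone (1.30e-04), and its adjusted p reached 0.315 over the other settings. With CHIR-99021 the change was 0.23 (95% confidence interval -0.65 to 1.12, adjusted p = 0.680).

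**Figure D2:**
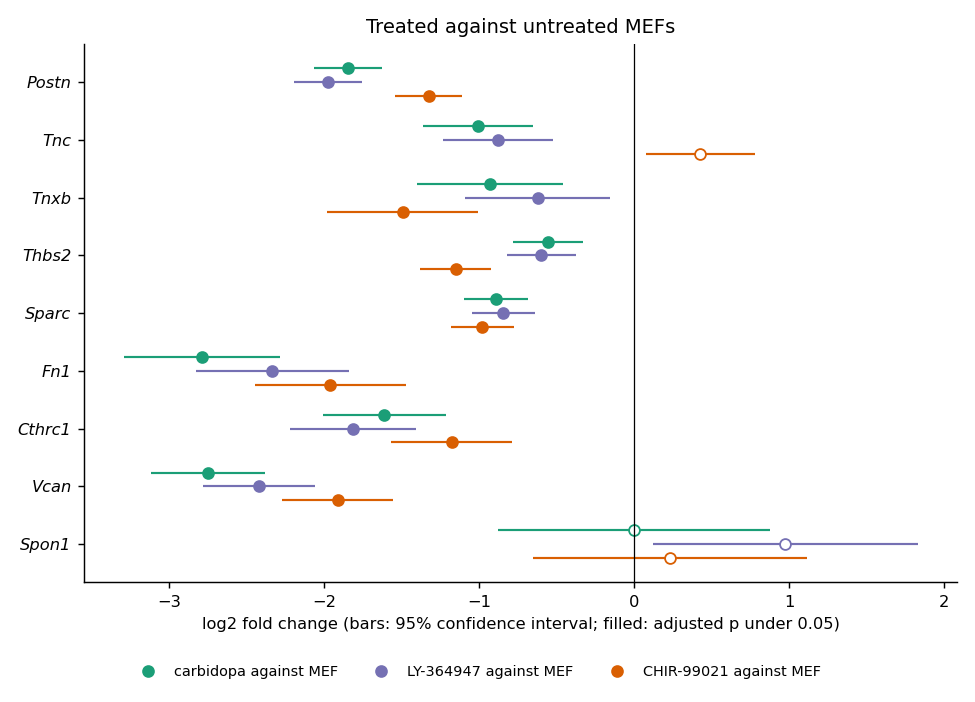
Log2 fold change of 9 genes (horizontal axis) in each treatment against MEF, with 95% confidence intervals as bars and filled points at an adjusted p under 0.05. Fn1 and Vcan lie farthest to the left (-2.79 and -2.75 with carbidopa), Tnc is on the right of 0 with CHIR-99021 alone (0.43), and Thbs4 is left out because its LY-364947 libraries had no reads.

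The second question was whether the treatments differed from each other. Between LY-364947 and carbidopa none of the 10 genes passed the test in either direction, against 0.0132% of all tested genes (2 of 15154, with 1367 at an unadjusted p under 0.05). The intervals were narrow for some members and wide for others. For Sparc the difference was 0.046 on the log2 scale (95% confidence interval -0.16 to 0.25), and for Thbs2 it was -0.041 (-0.26 to 0.18). Postn differed by -0.13 (-0.34 to 0.083), Cthrc1 by -0.20 (-0.62 to 0.22), Tnc by 0.13 (-0.22 to 0.48) and Tnxb by 0.31 (-0.16 to 0.78). For Fn1 it was 0.45 (-0.017 to 0.93), for Vcan 0.33 (-0.020 to 0.68) and for Spon1 0.97 (0.15 to 1.80), all higher with LY-364947 in the mean. These last values rest on the carbidopa libraries. Without carbidopa replicate 2, 4 genes were higher with LY-364947: Fn1 by 0.94 (adjusted p = 8.82e-05), Vcan by 0.61 (0.00255), Tnc by 0.40 (0.0227) and Spon1 by 2.01 (1.84e-04), with 3816 genes called in all. That fit assumes that the remaining carbidopa library varies like the other groups. Without carbidopa replicate 1, none of the 10 was called. When genes of low count were kept, Fn1 (adjusted p = 0.00159) and Spon1 (8.52e-04) were called, among 329 genes.

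CHIR-99021 differed from carbidopa in 5 of the 10 genes, 4 of them higher and 1 lower, against 6.62% of all tested genes higher and 8.08% lower. Tnc showed the widest gap, with 3409 and 3625 CPM against 1079 and 1527, a log2 difference of 1.43 (SE 0.16, adjusted p = 3.46e-04) or 2.70-fold. Vcan was higher by 0.84 (SE 0.16, adjusted p = 0.00626), Fn1 by 0.83 (SE 0.21, adjusted p = 0.0274) and Postn by 0.52 (SE 0.096, adjusted p = 0.00594). With a library left out, the difference of Fn1 ran from 0.47 to 1.32 and that of Vcan from 0.60 to 1.12. Thbs2 was lower with CHIR-99021 by -0.59 on the log2 scale (SE 0.10, adjusted p = 0.00372). The call for Fn1 was lost without either CHIR-99021 library (adjusted p = 0.149 and 0.0875), and those for Fn1, Postn and Thbs2 when only these 2 groups were fitted (0.0757, 0.0725 and 0.0529). Tnxb was -0.56 (95% confidence interval -1.05 to -0.079, adjusted p = 0.117), Cthrc1 0.43 (0.029 to 0.84, adjusted p = 0.143), Sparc -0.089 (-0.29 to 0.11, adjusted p = 0.567) and Spon1 0.23 (-0.62 to 1.08, adjusted p = 0.740). None of these 4 passed the test. Tnxb passed without a filter (adjusted p = 0.00165) and without CHIR-99021 replicate 2 (0.0408), and Spon1 without carbidopa replicate 2 (1.27, adjusted p = 0.00110).

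Against LY-364947, 3 genes were higher with CHIR-99021 and 2 were lower (6.45% and 7.69% among all tested genes). Tnc was higher by 1.31 on the log2 scale (SE 0.16, adjusted p = 6.12e-04), Postn by 0.65 (SE 0.097, adjusted p = 0.00174) and Cthrc1 by 0.64 (SE 0.19, adjusted p = 0.0476). The last was near the threshold and missed it with DESeq2 (adjusted p = 0.0574), with RLE size factors (0.0554), with at least 10 counts in every library (0.0531) and with any 1 of the 4 libraries left out (0.0682 to 0.254). Tnxb was lower by -0.87 (SE 0.22, adjusted p = 0.0250) and Thbs2 by -0.55 (SE 0.10, adjusted p = 0.00559). The Tnxb call was lost without LY-364947 replicate 2 (0.180) or CHIR-99021 replicate 1 (0.214), and that of Thbs2 without LY-364947 replicate 1 (0.0555) or CHIR-99021 replicate 1 (0.0614). Vcan differed by 0.51 (95% confidence interval 0.16 to 0.86, adjusted p = 0.0570), Fn1 by 0.37 (-0.097 to 0.84, adjusted p = 0.277), Sparc by -0.13 (-0.34 to 0.068, adjusted p = 0.362) and Spon1 by -0.74 (-1.57 to 0.085, adjusted p = 0.218). Vcan passed with DESeq2 (0.0209), and Vcan, Fn1 and Spon1 passed without a filter and in the fit of these groups alone. The reads of Thbs4 were at or under 3 in each treated library, so no fold is given between treatments.

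**Figure D3:**
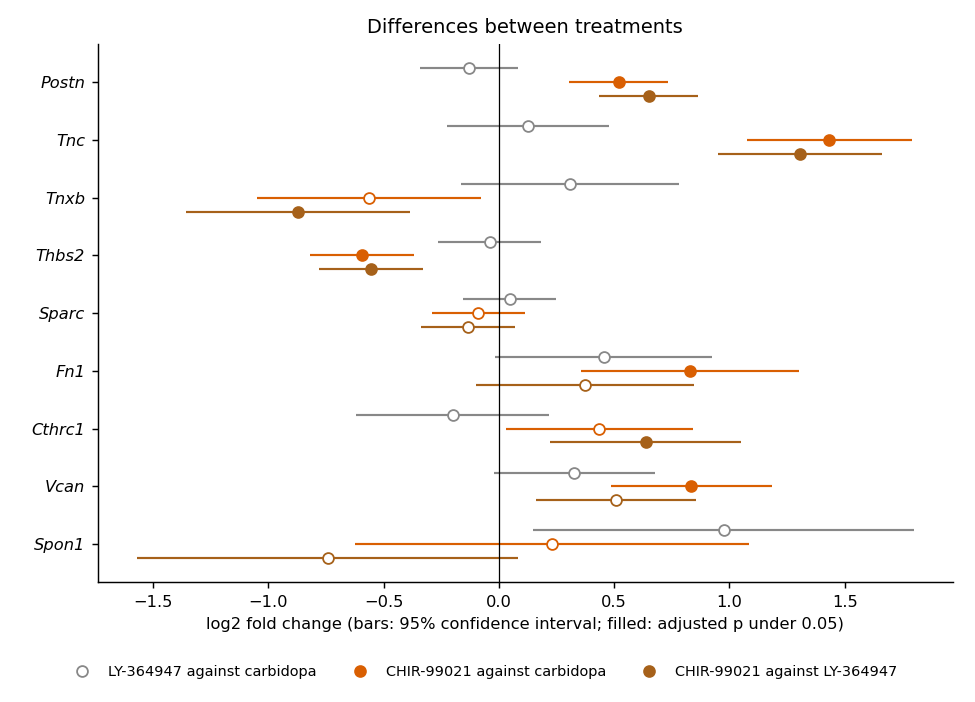
Log2 differences between treatments for 9 genes (horizontal axis), with 95% confidence intervals as bars and filled points at an adjusted p under 0.05. Both comparisons of CHIR-99021 put Tnc far to the right (1.43 and 1.31) and Thbs2 to the left (-0.59 and -0.55), while no point of LY-364947 against carbidopa is filled.

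The order of the treatments therefore differed between members. Postn and Tnc were higher with CHIR-99021 than with either other compound, Thbs2 was lower than with either, and Sparc passed no test between treatments. Among the treated groups, Vcan and Fn1 had their lowest mean with carbidopa and their highest with CHIR-99021, and of the 3 differences only that between these ends passed the test.

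To set the members beside each other, CPM were divided by the length of each gene's merged exons in kb. On this scale of levels per length, Fn1 (1624 ± 35.4 CPM per kb, SD, n = 2 here and below) and Sparc (1443 ± 2.22) led in MEFs, followed by Postn (582 ± 9.55), Thbs2 (362 ± 8.90) and Tnc (336 ± 12.01). Vcan (91.6 ± 4.45), Cthrc1 (15.5 ± 2.59), Tnxb (5.48 ± 0.921), Spon1 (0.589 ± 0.0684) and Thbs4 (0.319 ± 0.131) were less abundant. With carbidopa, Sparc led (779 ± 9.80), and Fn1 (235 ± 95.4) and Thbs2 (246 ± 24.1) differed by less than the spread between libraries. With LY-364947, Sparc (804 ± 10.9) was followed by Fn1 (322 ± 19.9) and Thbs2 (239 ± 0.898). With CHIR-99021, Sparc (732 ± 12.7) was followed by Tnc (453 ± 19.7) and Fn1 (417 ± 14.5), an order that turned round with the longest transcript as length (495 for Tnc against 586 for Fn1), and Postn (232 ± 11.6) and Thbs2 (163 ± 2.57) came next. Sparc thus stood second to Fn1 in MEFs and first in all treated groups, although with the longest transcript as length it was above Fn1 in MEFs as well (2377 against 2282).

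**Figure D4:**
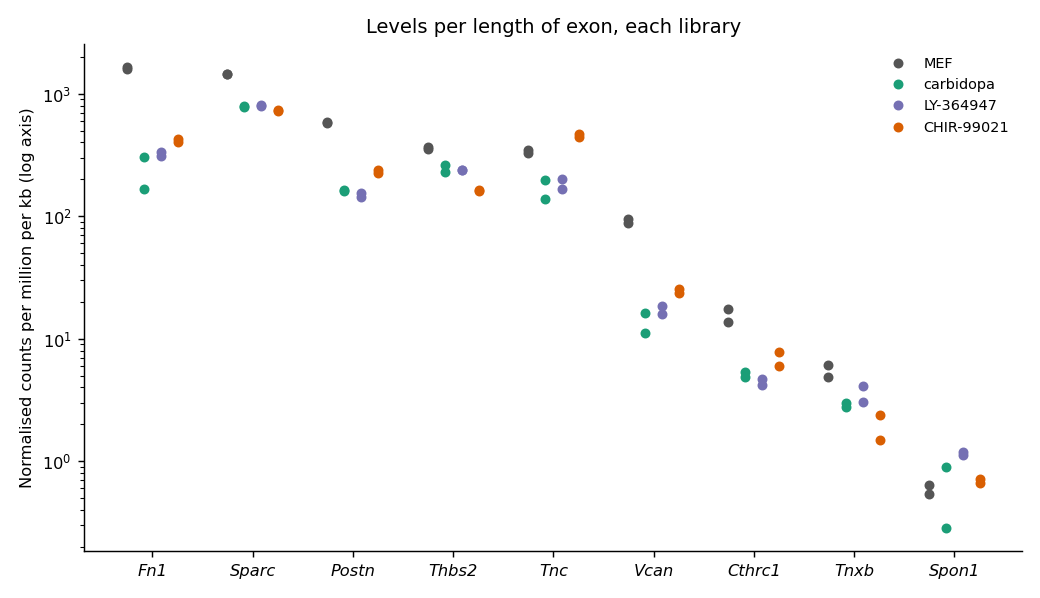
Normalized CPM per kb of merged exons (vertical log axis) of 9 genes in each library, ordered by their level in MEFs. Fn1 drops from above Sparc in MEFs (1624 against 1443) to below it in every treated library, and Thbs4 is left out because libraries at 0 have no place on a log axis.

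The genes around these proteins were examined from 3 lists. The counts of all 3 stand beside 19.7%, 17.2% and 20.1% of all tested genes lower with carbidopa, LY-364947 and CHIR-99021. Higher were 18.0%, 13.7% and 18.7%, and the median log2 fold changes of all tested genes were 0.037, 0.028 and 0.043. Of 15 further matricellular relatives, 12 could be tested. With carbidopa 7 were lower and 4 higher, with LY-364947 again 7 and 4, and with CHIR-99021 7 and 3, and the median log2 fold changes were -1.48, -1.36 and -0.92. Thbs1, the thrombospondin that activates latent TGF-beta, fell from 13345 CPM in MEFs (mean of 2 libraries, as for the levels below) to 2134, 2400 and 3990, with log2 fold changes of -2.64, -2.48 and -1.74 (adjusted p = 4.00e-07, 6.67e-07 and 6.45e-06). Fstl1, a follistatin-like relative of Sparc, fell from 2371 CPM to 686, 778 and 925, with log2 fold changes of -1.79, -1.61 and -1.36 (adjusted p = 4.85e-07, 1.05e-06 and 3.21e-06). Tgfbi, the closest relative of periostin, fell from 86.3 to 4.56 CPM with CHIR-99021, a log2 fold change of -4.24 (adjusted p = 2.68e-08), and was also lower with carbidopa (-1.59, adjusted p = 6.17e-06) and LY-364947 (-1.52, adjusted p = 8.87e-06). Others rose. Spon2 (mindin), the relative of Spon1, went from 2.396 CPM in MEFs to 87.2, 88.1 and 49.6, with log2 fold changes of 5.17, 5.19 and 4.36 (adjusted p = 1.77e-08, 1.78e-08 and 6.14e-08). Sparcl1 (hevin), the closest relative of Sparc, rose with carbidopa from 5.47 to 50.5 CPM, a log2 fold change of 3.19 (adjusted p = 1.05e-06), and also with LY-364947 (2.98, adjusted p = 1.72e-06) and CHIR-99021 (2.34, adjusted p = 1.03e-05), while Sparc itself fell. Spock3, another member of the Sparc family, rose with LY-364947 from 3.73 to 27.6 CPM, a log2 fold change of 2.88 (adjusted p = 1.20e-06), and also with carbidopa (2.60, adjusted p = 2.43e-06) and CHIR-99021 (1.59, adjusted p = 1.09e-04).

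Of 19 genes of the hyaluronan and versican network, 14 could be tested, of which 7, 6 and 6 were lower and 2, 1 and 0 higher in the same order of treatments (medians -0.97, -0.53 and -0.64). Has2, which makes hyaluronan, fell from 29.2 CPM to 4.59 with carbidopa and 5.74 with LY-364947, with log2 fold changes of -2.67 and -2.35 (adjusted p = 3.27e-06 and 8.00e-06). Has2 missed the threshold with CHIR-99021 (-0.35, adjusted p = 0.141). Cd44, the main hyaluronan receptor, fell from 900 CPM to 147, 135 and 238, with log2 fold changes of -2.61, -2.73 and -1.92 (adjusted p = 6.54e-08, 4.83e-08 and 4.18e-07). Adamts5, a protease that cleaves versican, fell from 451 CPM to 148, 178 and 65.3, with log2 fold changes of -1.61, -1.35 and -2.79 (adjusted p = 3.21e-06, 1.17e-05 and 9.38e-08). Adamts4, which also cleaves versican, fell in all treatments, with log2 fold changes of -2.59, -2.67 and -1.22 (adjusted p = 1.09e-05, 1.08e-05 and 0.00109). With CHIR-99021 the other leading genes were Hmmr, a hyaluronan-binding protein of dividing cells, and Adamts1, with log2 fold changes of -2.17 and -0.96 (adjusted p = 1.96e-05 and 6.11e-05). Adamts1 was also lower with carbidopa (-0.80) and LY-364947 (-0.76), and Hmmr with carbidopa (-0.75, adjusted p = 0.0100) but not past the threshold with LY-364947 (-0.29, adjusted p = 0.257).

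All 15 genes for cell surface receptors could be tested, and 11, 10 and 12 were lower with carbidopa, LY-364947 and CHIR-99021, while none was higher (medians -1.02, -0.91 and -0.82). Lrp1, which takes up thrombospondins, fell from 3192 CPM to 411, 409 and 496, with log2 fold changes of -2.96, -2.96 and -2.69 (adjusted p = 1.76e-08, 1.76e-08 and 3.28e-08). Itga4, an integrin subunit that binds fibronectin, fell from 374 CPM to 109, 123 and 130, with log2 fold changes of -1.78, -1.61 and -1.52 (adjusted p = 1.03e-05, 2.17e-05 and 2.97e-05). The integrin subunit Itgb5 fell in all treatments, with log2 fold changes of -1.26, -1.31 and -0.49 (adjusted p = 8.99e-06, 7.02e-06 and 0.00435). So did its relatives Itgb3 (-1.89, -1.66 and -1.39, adjusted p = 1.37e-05, 3.68e-05 and 1.10e-04) and Itgb1 (-1.02, -0.98 and -0.67, adjusted p = 1.64e-05, 2.33e-05 and 3.25e-04). With CHIR-99021, Stab1, a scavenger receptor for Sparc that macrophages make, had a log2 fold change of -4.09 (adjusted p = 2.17e-06), beside the fall of the macrophage markers. Itga8, an integrin subunit for fibronectin and tenascins, had one of -1.92 (adjusted p = 9.20e-06). Both were also lower with carbidopa (-1.28 for Stab1 and -1.47 for Itga8) and LY-364947 (-1.41 and -1.29).

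**Figure D5:**
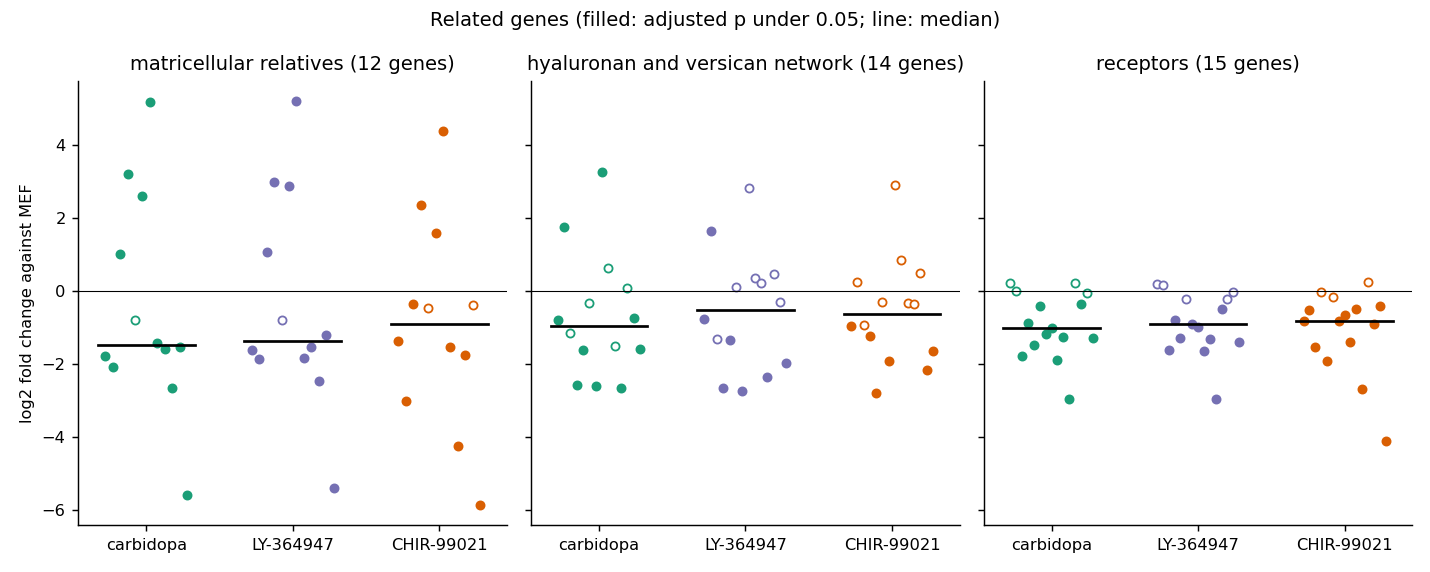
Log2 fold change against MEF (vertical axis) of the tested genes of the 3 related lists in each treatment, with the median as a line and filled points at an adjusted p under 0.05. Every median lies below 0 (-0.53 to -1.48), and the points near 5 in the first panel are Spon2.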

How the data were processed

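RNA-seq was performed on 8 libraries of mouse cells. Reads were aligned by the authors to mm10 (STAR 2.4.2a) and assigned to genes with featureCounts, and the counts were deposited as whole numbers without normalization. The annotation and the use of strand are not given in the sources used here. The paper names an NEBNext kit and the labels a SMARTER kit.

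The members and the lists of related genes and cell type markers were chosen with earlier results of these data known. All members, and up to 4 genes of each related list per comparison with MEF (those called with the smallest p), are named. Counts were tested in R 4.3.3 with edgeR 4.0.16 (TMM, filterByExpr, quasi-likelihood test, group as the only term, 8 libraries in one fit, Benjamini-Hochberg over 15154 genes). The fit was first run on simulated counts, in which a gene varied alike in all groups. That run could therefore not check this assumption. Confidence intervals of log2 fold changes use the SE derived from the F value and the moderated degrees of freedom. Alternatives were DESeq2 1.42.0, RLE size factors, other filters, fits of the compared groups alone, replicate as a block, and each library left out. Positions and exon lengths are from GENCODE M21 (GRCm38, the assembly of mm10), which held 50354 of the 50578 identifiers and may not be the authors' release. The libraries held 15039566 to 20504338 counts, and the common biological coefficient of variation was 11.0%.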

Additional observations from a re-analysis of the deposited data

How the results depend on the processing

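The counts of members that were lower than in MEFs stayed at 7 to 9 under DESeq2, RLE size factors, both other filters, the compared groups alone and the replicate block, and at 8 to 10 with a library left out. Thbs4 is not tested with at least 10 counts in every library, which gives 8, 8 and 7. Spon1 decides the upper end of the range with carbidopa and also the 0 to 1 members called higher there when a library was left out. With LY-364947, 1 member was higher without a filter, with DESeq2 and with the compared groups alone (Spon1). With CHIR-99021, 1 was higher in these 3 settings and with the replicate block (Tnc). The change of Spon1 with carbidopa turned to -0.024 (RLE), -0.0014 (at least 10 counts in every library), -0.053 (replicate block) and -0.025 (DESeq2), and ran from -1.04 to 0.60 with a library left out.

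Between LY-364947 and carbidopa, 2 members were higher without a filter and 0 to 4 with a library left out. All genes called there numbered 329 without a filter, 16 with DESeq2, 0 with the compared groups alone and 2 to 3816 with a library left out. The difference of Tnc ran from -0.10 to 0.40 and that of Thbs2 from -0.14 to 0.062 with a library left out. Between CHIR-99021 and carbidopa, 2 members were lower without a filter. With the compared groups alone 0 were lower, 2 were higher and 1027 genes were called in all. With a library left out, 1 to 2 members were lower, Spon1 ran from -0.36 to 1.27, and 715 to 4632 genes were called. Between CHIR-99021 and LY-364947, 5 members were higher without a filter and with the compared groups alone (3673 genes in all), and with a library left out 0 to 2 were lower and 663 to 1200 genes were called. Against MEF, leaving out a library gave 3142 to 7996 (carbidopa), 2841 to 3095 (LY-364947) and 3433 to 4709 (CHIR-99021) genes. A group with a library left out holds 1 library, which is assumed to vary like the other groups. The cause of these changes was not tested.

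Same-numbered libraries did not deviate together (correlations of -0.16 to 0.13 over the pairs of groups). With 2 libraries per group, such correlations cannot settle whether the numbers pair the samples. The replicate block changed no other call of a member. With the longest transcript as length, the MEF levels in CPM per kb were 2377 (Sparc), 2282 (Fn1), 969 (Postn), 430 (Thbs2), 368 (Tnc), 107 (Vcan), 21.2 (Cthrc1) and 0.993 (Spon1), while Tnxb and Thbs4 moved by less than their spread. With 2 libraries per group, the spread of a group rests on 1 difference between libraries, and at under 30 reads in a library (Thbs4) counting error limits the fold.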
